A study of Mus musculus with 12 samples.

Results

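Osteoclasts are the bone-resorbing cells that form when macrophage precursors fuse, and 10 genes of that differentiation programme were followed here across 12 macrophage libraries. The 10 genes were chosen by name: Tnfrsf11a, Oscar and Calcr (receptors), Src (a kinase), Nfatc1 (a transcription factor), Dcstamp, Ocstamp and Atp6v0d2 (cell fusion and acid transport), and Ctsk and Acp5 (resorption enzymes). Of the 16145 genes listed in at least 1 library, 9 of the 10 were found, and Calcr, listed in none, was counted as 0.

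RNA came from bone marrow-derived macrophages (BMDMs), cells grown from mouse marrow for 7 days in α-MEM with serum and the growth factor M-CSF. The 4 groups of 3 libraries were wild-type (WT) BMDMs given 4-octyl itaconate (4-OI, a cell-permeable ester of the metabolite itaconate) at 120 µM for 15 h, WT BMDMs given 15 µM hemin (oxidised heme) for 12 h, Irg1KO BMDMs given vehicle for 12 h, and WT BMDMs given vehicle for 12 h. Itaconate itself is made by the product of Acod1, formerly called Irg1. The labels give neither the Irg1KO allele nor the strain, age or number of mice, and whether the 3 libraries of each group are separate mice or culture dishes is not stated. The p-values therefore reflect library-to-library spread, which may be technical. The labels name M-CSF and no RANKL, so the osteoclast genes were read in precursor cultures and not in differentiated osteoclasts. Because 4-OI lasted 15 h and every other group 12 h, compound and hours cannot be told apart for 4-OI.

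Osteoclast formation is driven by RANKL (Tnfsf11), which binds the receptor RANK (Tnfrsf11a) on macrophage precursors that M-CSF keeps alive. RANK signals through Traf6 and NF-κB, and immunoreceptor (ITAM) co-receptors such as the one OSCAR uses raise calcium. Both routes converge on Fos and on NFATc1, which switches on the genes of fusion, acid secretion and matrix digestion. Irf8 and Bcl6 are known to hold that programme back in macrophages.

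The stretch before the start site is shown for Ctsk and Src, the members with the largest fold changes in the Irg1KO libraries. It is also shown for Acp5, called higher with both 4-OI and hemin, though not every way of processing kept those calls. RefSeq promoter windows (GRCm38.p6, 300 bases, of which 250 lie before the start) were at hand for 6 of the 10 members, in 9 windows. The files' own build is GRCm39, so these positions belong to the RefSeq table only. Capitals in the Acp5 sequence mark its match to the core of the antioxidant response element, TGACNNNGC. Of 3 Acp5 windows, only the window with this match is printed, and a link to the Acp5 values was not tested.
Ctsk, chr3:95498960-95499209, plus strand: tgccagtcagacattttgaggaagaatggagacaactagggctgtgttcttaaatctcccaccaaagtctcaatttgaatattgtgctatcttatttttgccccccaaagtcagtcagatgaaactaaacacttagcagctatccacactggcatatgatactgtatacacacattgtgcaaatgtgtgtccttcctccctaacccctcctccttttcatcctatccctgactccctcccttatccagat
Src, chr2:157424043-157424292, plus strand: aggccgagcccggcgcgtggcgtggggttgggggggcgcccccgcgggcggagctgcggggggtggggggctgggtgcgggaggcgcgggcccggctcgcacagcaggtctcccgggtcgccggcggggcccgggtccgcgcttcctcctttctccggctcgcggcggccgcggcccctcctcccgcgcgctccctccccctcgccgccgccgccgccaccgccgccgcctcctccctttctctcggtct
Acp5, chr9:22130599-22130848, minus strand: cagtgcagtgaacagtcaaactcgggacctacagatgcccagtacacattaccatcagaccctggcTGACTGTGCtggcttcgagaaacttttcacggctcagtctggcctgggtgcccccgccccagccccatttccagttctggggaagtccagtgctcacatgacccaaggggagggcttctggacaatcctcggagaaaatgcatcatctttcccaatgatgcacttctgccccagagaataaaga

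The Ctsk and Src stretches differ in base composition. Ctsk had a GC content of 43.2% and 0 CpG dinucleotides in these 250 bases, and Src had 82.8% GC and 40 CpG. Over all 32851 windows the median was 52.4% GC with 6 CpG. Of 3 motifs searched on both strands of the 9 windows, the antioxidant response element core TGACNNNGC was matched in 1 of 3 Acp5 windows, at position -184 from the start site, and once in the Oscar window, at position 38 after it on the opposite strand (GCAGGGTCA). That core is held by 12.4% of all windows. The AP-1 site TGACTCA (5.20% of all windows) and the MITF and TFE box TCACGTG (3.77%) were found in no member window, which says only that these letters are not there.

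Library totals ran from 9405112 to 22390882 expected counts (estimated fragments per gene). All macrophage markers (10 of 10) were present in every group. Their summed level was 24795 to 28140 CPM (counts scaled to library size) across the 12 libraries, with Lyz2 the highest in every group. Single markers did move against WT vehicle. With 4-OI 2 were called higher and 4 lower (log2 fold changes -1.63 to 0.25), beside 25.4% and 25.0% of all tested genes. With hemin 3 were higher and 2 lower (9.48% and 7.74% of all tested genes), and with Irg1KO 2 and 1 (23.5% and 16.3%). Hmox1, the heme oxygenase that hemin and itaconate derivatives are known to induce, was at 4763 to 4836 CPM with 4-OI and 7087 to 8506 CPM with hemin, against 946 to 1087 CPM in WT vehicle. Acod1 had 21.7, 13.6 and 26.3 CPM in the libraries labelled Irg1KO and 27.5, 30.5 and 25.01 CPM in WT vehicle, so its gene count does not separate the genotypes. Its mean transcript length in the files did, at 3132 to 3382 bases in the libraries labelled Irg1KO and 2635 to 2653 bases in WT vehicle. Markers of stromal cells (14 genes) summed to 10471 to 11742 CPM in the libraries labelled Irg1KO, against 1968 to 2173 CPM with 4-OI, 1582 to 2073 CPM with hemin and 1736 to 2136 CPM in WT vehicle. RNA was measured in bulk, so a change in the number of cells of a type and a change in RNA per cell cannot be told apart.

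The receptor genes differed widely in level. Tnfrsf11a encodes RANK and was the most abundant member in every WT group. It had 16.3, 18.1 and 18.7 FPKM (fragments per length and depth, a level corrected for transcript length) with 4-OI, 20.2, 19.4 and 21.6 FPKM with hemin, 15.97, 17.6 and 17.2 FPKM in the Irg1KO libraries and 21.2, 21.9 and 22.4 FPKM in WT vehicle. All 3 libraries with 4-OI and all 3 labelled Irg1KO lay below all 3 WT vehicle libraries, while hemin overlapped vehicle.

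Oscar, the collagen-binding co-receptor that pairs with the FcRγ chain, had 1, 0 and 0 expected counts with 4-OI, 1, 2 and 0 with hemin, 4, 2 and 0 in the Irg1KO libraries and 1, 2 and 1 in WT vehicle. No group stood apart, and no library exceeded 4 counts. Calcr, the calcitonin receptor found on mature osteoclasts, was at 0 in all 12 libraries, and a count of 0 allows up to 3 counts per library. These limits cover counting error only.

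Src, the kinase needed to organise the ruffled border through which osteoclasts resorb bone, was low in WT cells. It had 3.21, 2.73 and 2.20 FPKM with 4-OI, 1.51, 2.36 and 1.75 FPKM with hemin, 6.35, 5.51 and 5.91 FPKM in the Irg1KO libraries and 1.38, 1.94 and 1.44 FPKM in WT vehicle. The Irg1KO libraries were above all others, the 4-OI libraries were above all vehicle libraries, and hemin overlapped both 4-OI and vehicle. Behind these levels stand 83 to 170 expected counts with 4-OI, 55 to 122 with hemin, 281 to 364 in the Irg1KO libraries and 60 to 167 in WT vehicle.

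Nfatc1, the master transcription factor of osteoclast formation, was the steadiest tested member. It had 10.9, 11.5 and 12.8 FPKM with 4-OI, 13.6, 14.3 and 13.2 FPKM with hemin, 14.5, 14.3 and 13.95 FPKM in the Irg1KO libraries and 12.7, 14.1 and 14.1 FPKM in WT vehicle. Each group overlapped vehicle on this scale. Its highest and lowest group means differed by 0.18 on the log2 CPM scale, and 17.5% of tested genes had a smaller span.

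Among the fusion genes, Dcstamp, a membrane protein required for osteoclast and giant cell fusion, was at the edge of detection. It had 4, 3 and 3 expected counts with 4-OI, 0, 3 and 2 with hemin, 5, 1 and 1 in the Irg1KO libraries and 1, 2 and 0 in WT vehicle. The 4-OI libraries lay above the vehicle libraries, but by 1 count at the closest. Ocstamp, its partner in fusion, had 27, 34 and 19 expected counts with 4-OI, 9, 14 and 14 with hemin, 14, 3 and 0 in the Irg1KO libraries and 8, 20 and 8 in WT vehicle.

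Per length, Ocstamp was at 1.05, 1.17 and 1.04 FPKM with 4-OI, 0.51, 0.56 and 0.55 FPKM with hemin, 0.56, 0.09 and 0 FPKM in the Irg1KO libraries and 0.27, 0.48 and 0.40 FPKM in WT vehicle. The 4-OI libraries were above all other libraries. Irg1KO replicate 1 stood apart from the other two of its group, which were below every vehicle library.

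Atp6v0d2, a proton pump (V-ATPase) subunit that osteoclast precursors also need for fusion, had 6.52, 8.04 and 8.50 FPKM with 4-OI, 4.64, 3.87 and 3.96 FPKM with hemin, 6.85, 7.69 and 8.96 FPKM in the Irg1KO libraries and 5.37, 5.53 and 4.86 FPKM in WT vehicle. The 4-OI and Irg1KO libraries overlapped each other and lay above vehicle, and the hemin libraries lay below vehicle. Between its highest and lowest group the log2 CPM span was 0.91, wider than in 77.2% of tested genes.

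Of the resorption enzymes, Ctsk encodes cathepsin K, the protease that digests bone collagen. It had 11.8, 12.7 and 11.1 FPKM with 4-OI, 9.80, 10.4 and 9.35 FPKM with hemin, 38.4, 35.3 and 38.9 FPKM in the Irg1KO libraries and 12.8, 10.7 and 11.96 FPKM in WT vehicle. Every Irg1KO library was above every WT library, and the hemin libraries were below the vehicle libraries on this scale but overlapped them in CPM. Acp5, the tartrate-resistant acid phosphatase used as the classical osteoclast stain, had 16.4, 16.8 and 17.1 FPKM with 4-OI, 17.3, 18.98 and 17.0 FPKM with hemin, 18.01, 15.2 and 15.1 FPKM in the Irg1KO libraries and 14.6, 16.3 and 15.6 FPKM in WT vehicle. Both the 4-OI and the hemin libraries lay above vehicle, 4-OI by a margin smaller than the spread within either group.

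**Figure D1:**
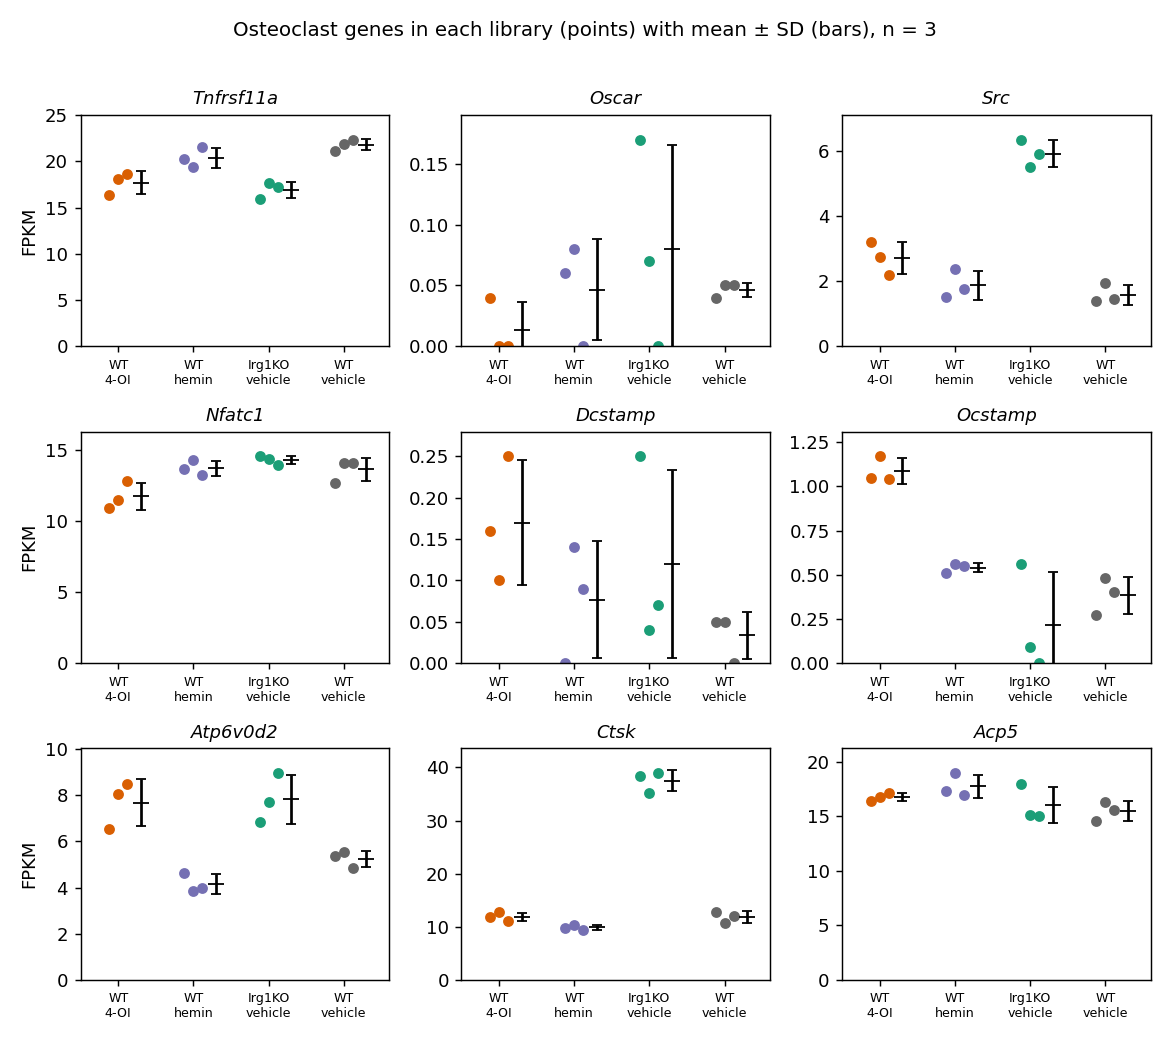
FPKM of 9 members in each library (points) for WT 4-OI, WT hemin, Irg1KO vehicle and WT vehicle, with mean ± SD (n = 3, bars cropped at 0). Ctsk and Src are highest in the Irg1KO libraries, Ocstamp is highest with 4-OI, and Nfatc1 and Acp5 move little.

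Ordered by mean FPKM, the WT groups shared the top member and the Irg1KO libraries did not. With 4-OI the order was Tnfrsf11a (17.7 ± 1.23 FPKM, SD, n = 3), Acp5 (16.8 ± 0.38), Ctsk (11.9 ± 0.80), Nfatc1 (11.7 ± 0.96), Atp6v0d2 (7.69 ± 1.04), Src (2.71 ± 0.51) and Ocstamp (1.09 ± 0.07). Tnfrsf11a and Acp5 overlapped there, as did Ctsk and Nfatc1. With hemin the order was Tnfrsf11a (20.4 ± 1.08 FPKM), Acp5 (17.8 ± 1.07), Nfatc1 (13.7 ± 0.53), Ctsk (9.85 ± 0.53), Atp6v0d2 (4.16 ± 0.42), Src (1.87 ± 0.44) and Ocstamp (0.54 ± 0.03), with no overlap between neighbours. In the Irg1KO libraries Ctsk came first (37.5 ± 1.99 FPKM), followed by Tnfrsf11a (16.9 ± 0.87) and Acp5 (16.1 ± 1.67), which overlapped, and by Nfatc1 (14.3 ± 0.29), Atp6v0d2 (7.83 ± 1.06), Src (5.92 ± 0.42) and Ocstamp (0.22 ± 0.30). In WT vehicle the order was Tnfrsf11a (21.8 ± 0.61 FPKM), Acp5 (15.5 ± 0.88), Nfatc1 (13.6 ± 0.82), Ctsk (11.8 ± 1.05), Atp6v0d2 (5.25 ± 0.35), Src (1.59 ± 0.31) and Ocstamp (0.38 ± 0.11), and only Nfatc1 and Ctsk overlapped among these neighbours. Dcstamp and Oscar were at 0.25 FPKM or less in every library.

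With 4-OI, Ocstamp, Atp6v0d2, Src and Acp5 were higher than in WT vehicle, while Tnfrsf11a was slightly lower. In the edgeR quasi-likelihood test, Ocstamp rose by 1.61 on the log2 scale (SE 0.40, adjusted p = 0.00127), Src by 0.90 (SE 0.16, adjusted p = 2.11e-05) and Atp6v0d2 by 0.62 (SE 0.11, adjusted p = 7.78e-06). Acp5 rose by 0.24 (SE 0.09, adjusted p = 0.0199) and Tnfrsf11a fell by 0.17 (SE 0.06, adjusted p = 0.0114). Ctsk (0.16, SE 0.09, adjusted p = 0.128) and Nfatc1 (-0.08, SE 0.06, adjusted p = 0.295) did not pass.

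Of 7 members that passed the filter on low counts, 5 were called with 4-OI, 4 higher and 1 lower, where 50.4% of all 12148 tested genes were called, 25.4% higher and 25.0% lower. Ocstamp passed that filter through the groups in which it was high, with 3 of 3 4-OI, 3 of 3 hemin, 1 Irg1KO and 1 vehicle library over its CPM minimum, so the number that passed supports nothing. Dcstamp, under the filter, summed to 10 counts with 4-OI and 3 counts in WT vehicle. That is a ratio per library total of 4.18 (exact 95% counting interval 1.08 to 23.6, counting error only). In the edgeR test without the filter, Dcstamp was not called (log2 fold change 2.06, unadjusted p = 0.0400, adjusted p = 0.0948). Oscar summed to 1 and 4 counts (0.314, interval 0.00637 to 3.17). The Acp5 call was lost with 4-OI replicate 2 or 3 or vehicle replicate 1 left out (0.23, 0.21 and 0.20) and on the FPKM scale (0.11 with 1 added), and the Tnfrsf11a call was lost without 4-OI replicate 1 (-0.11). On the log2(FPKM + 1) scale 3 members were higher and 2 lower, the second being Nfatc1 (-0.20), and over all genes 1744 were higher and 4597 lower in place of 3083 and 3043, with the median of all genes at -0.11. Against a 2-fold threshold none of the 7 passed (1 at an unadjusted p under 0.05).

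Around these members, 8 lists of osteoclast genes were described, which share 3 genes with the members (Acp5, Atp6v0d2 and Src). Of 16 tested transcription factors with 4-OI, 10 were higher and 3 lower (median log2 fold change 0.32, against -0.0031 over all genes). The AP-1 subunits Fosl1 (17.3 against 2.07 CPM, log2 fold change 3.11, SE 0.15) and Fos (1.29, SE 0.07) rose, as did Prdm1, the Blimp1 repressor that opens the osteoclast programme (1.59, SE 0.11), while the NFAT paralog Nfatc2 fell by 1.04 (SE 0.05). Nfatc3, another paralog, did not pass (0.11, SE 0.06), and the further paralogs Nfatc4 and Nfat5 are not reported here. Of 13 tested genes on the repressor list, 6 were higher and 6 lower (median -0.05). Irf8 (0.99, SE 0.05) and the NF-κB inhibitor Tnfaip3 (0.80, SE 0.07) were higher, and Id2 (-0.61, SE 0.09) was lower. The low-level Irf4 was also lower (-1.97, SE 0.42, 0.389 CPM with 4-OI and 1.57 CPM in vehicle). Irf4 is counted as listed, and whether it acts as a repressor in these cells was not tested.

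The upstream genes were mixed. Of 18 RANK signalling genes, 3 were higher and 6 lower with 4-OI (median 0.01; -0.03 with upper-quartile factors and -0.12 on the log2(FPKM + 1) scale). Tnfrsf11b, the decoy receptor osteoprotegerin, fell by 1.89 (SE 0.19) and the p38 kinase gene Mapk14 rose by 0.46 (SE 0.05), while Traf6 did not pass (0.01, SE 0.06). Of 19 tested ITAM and calcium signalling genes, 10 were higher and 3 lower (median 0.23; 6 and 5, median 0.05, on the log2(FPKM + 1) scale), with the adaptor gene Tyrobp (DAP12) at 0.51 (SE 0.05), the IgG receptor gene Fcgr3 at 0.66 (SE 0.04) and the adaptor gene Blnk at -1.04 (SE 0.06).

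Counts over the effector lists with 4-OI depended on the scale. Of 19 tested V-ATPase subunits, 12 were higher and 3 lower (median 0.16; 9 and 3 with upper-quartile factors, 7 and 4 with a median of 0.02 on the log2(FPKM + 1) scale). Beside Atp6v0d2, those with the lowest adjusted p included Atp6v1b2 (0.57, SE 0.04), Atp6v0b (0.69, SE 0.05) and Atp6v1a (0.43, SE 0.05). Atp6v0d1, the widely expressed paralog of Atp6v0d2, did not pass (219 CPM with 4-OI and 207 CPM in vehicle, log2 fold change 0.08, SE 0.05). Per length it stood at 133 FPKM with 4-OI and 138 FPKM in vehicle, far above Atp6v0d2 at 7.69 and 5.25 FPKM. Of 18 tested resorption genes, 12 were higher and 2 lower (median 0.17), a count that fell to 1 higher and 2 lower on the log2(FPKM + 1) scale. Its chloride channel gene Clcn7 was at 0.35 (SE 0.06) and the cathepsin S gene Ctss at 0.29 (SE 0.05). Of 14 tested genes on the fusion and attachment list, 8 were higher and 4 lower (median 0.23), and 6 and 5 on the log2(FPKM + 1) scale. Pstpip2 was at 1.29 (SE 0.08) and the signal-regulatory receptor gene Sirpa at -0.67 (SE 0.05). The list does not separate genes that promote fusion from genes that restrain it, so its counts give no direction for fusion. Of 14 tested Src family kinases and partners, 5 were higher and 6 lower (median -0.08), and unlike Src, the kinase gene Fyn fell (-1.05, SE 0.07).

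Marker levels of other cells also moved with 4-OI. The 10 neutrophil markers, 9 of them in the files, summed to 339 to 361 CPM with 4-OI and 83.9 to 94.5 CPM in WT vehicle, of which the collagenase gene Mmp8 alone made 313 and 79.5 CPM, and 2 of 5 tested markers were called higher. Ly6g was in no library, and Elane and Mpo were under 1 CPM in both groups. Their part in the member values was not tested. Osteoblast markers summed to 17.1 to 20.01 CPM with 4-OI and 31.2 to 35.1 CPM in WT vehicle, and megakaryocyte markers, mostly Pf4, to 435 to 482 and 244 to 258 CPM. Endothelial markers summed to 9.59 to 11.0 CPM with 4-OI and 36.6 to 40.8 CPM in WT vehicle. Kdr was the highest of these in both groups, and of 5 tested, 2 were called lower, 0 higher and 3 not called. The stromal sum with 4-OI (1968 to 2173 CPM) overlapped that of vehicle (1736 to 2136 CPM), with Dcn and Lum at 0.

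**Figure D2:**
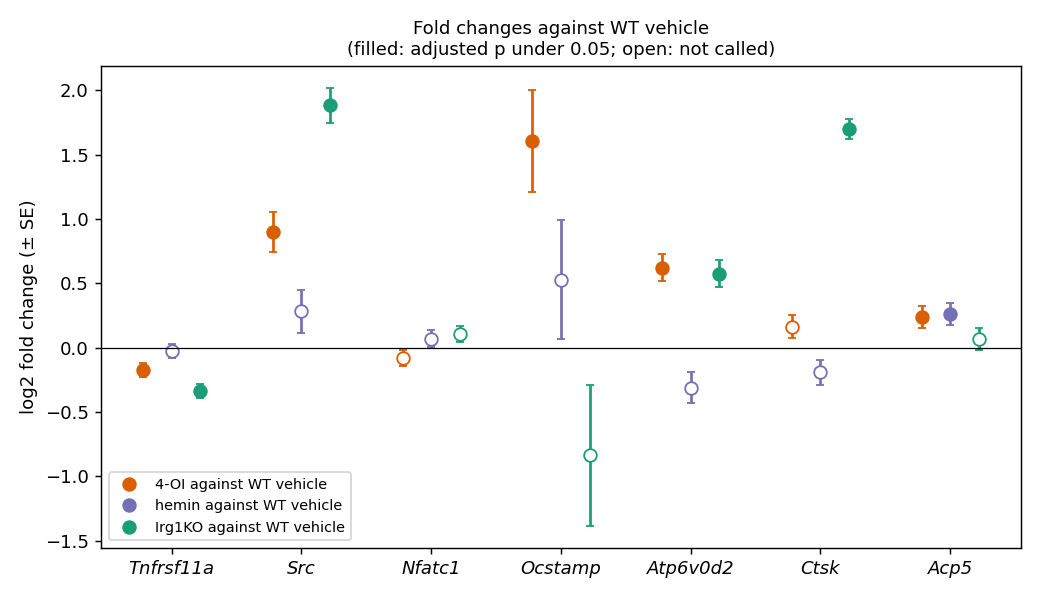
Log2 fold change ± SE (vertical axis) of the 7 tested members for 4-OI, hemin and Irg1KO, each against the same 3 WT vehicle libraries, with filled symbols where the adjusted p was under 0.05. Src and Ctsk reach 1.88 and 1.70 in the Irg1KO libraries, and Ocstamp reaches 1.61 with 4-OI.

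Hemin left most members near vehicle. Acp5 rose by 0.26 on the log2 scale (SE 0.09, adjusted p = 0.0284) and was the member called. The proton pump subunit Atp6v0d2 was at 10.5 ± 1.15 CPM with hemin and 12.7 ± 0.79 CPM in WT vehicle (SD, n = 3 each), which missed the threshold (log2 -0.31, SE 0.12, adjusted p = 0.0706) although the groups did not overlap. Ctsk was at -0.19 (SE 0.09, adjusted p = 0.167), Src at 0.28 (SE 0.17, adjusted p = 0.288), Ocstamp, whose groups did not overlap either, at 0.53 (SE 0.46, adjusted p = 0.503), Nfatc1 at 0.07 (SE 0.06, adjusted p = 0.506) and Tnfrsf11a at -0.03 (SE 0.06, adjusted p = 0.816).

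That is 1 of 7 tested members, 1 higher and 0 lower, where 17.2% of all tested genes were called, 9.48% higher and 7.74% lower (3 of 7 members had an unadjusted p under 0.05). The Acp5 call was lost with DESeq2, with FPKM (0.18 with 1 added), without hemin replicate 2 and without vehicle replicate 1 or 3 (0.22, 0.22 and 0.26). Without hemin replicate 1 the Atp6v0d2 decrease was called (-0.39), as it was with no filter on low counts (-0.31). On the log2(FPKM + 1) scale the member called was instead Ctsk, lower (-0.24), and over all genes 620 were higher and 1396 lower in place of 1152 and 940. Dcstamp summed to 5 counts with hemin and 3 in vehicle, and Oscar to 3 and 4. Osteoblast markers summed to 18.7 to 24.7 CPM with hemin and 31.2 to 35.1 CPM in WT vehicle. For endothelial markers the sums were 17.6 to 19.8 CPM with hemin and 36.6 to 40.8 CPM in WT vehicle. Kdr was the highest endothelial marker in both groups. Of 5 tested endothelial markers, 1 was called lower, 0 higher and 4 not called. What cells of these kinds contribute to the member values was not tested.

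Genes around the members moved by smaller amounts with hemin. Of 16 transcription factors, 8 were higher and 2 lower (median 0.19), including Fosl1 (1.16, SE 0.19), Myc (0.41, SE 0.05) and the macrophage factor gene Spi1 (0.32, SE 0.05). Of 13 genes on the repressor list, 3 were higher and 3 lower (median 0.03, and -0.02 on the log2(FPKM + 1) scale), with Irf8 at 0.71 (SE 0.05). Among 18 RANK signalling genes 5 were higher and 3 lower (median 0.07; 2 and 4, median -0.0029, on the log2(FPKM + 1) scale), with Tnfrsf11b at -0.75 (SE 0.16), and among 19 ITAM and calcium genes 6 were higher and 3 lower (median 0.08). Pirb, an inhibitory receptor gene of that list, was at 0.78 (SE 0.06), but it had no whole expected count in any library, so its reads were shared with related genes and its value is uncertain.

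The effector lists followed no single direction with hemin. Of 19 tested V-ATPase subunits, 2 were higher and 4 lower (median 0.01), of 18 resorption genes 6 were higher and 1 lower (median 0.11), and of 14 fusion and attachment genes 3 were higher and 5 lower (median -0.03). On the log2(FPKM + 1) scale the V-ATPase count was 0 higher and 5 lower (median -0.05) and the resorption count 2 higher and 1 lower. Acp2, the lysosomal acid phosphatase, rose by 0.25 (SE 0.05) beside Acp5, and Pstpip2, of the fusion and attachment list, rose by 0.78 (SE 0.08). Of 14 Src family kinases and partners, 3 were higher and 2 lower (median 0.08; 1 and 2 on the log2(FPKM + 1) scale), with the Src paralog Fgr at 38.1 CPM with hemin and 16.5 CPM in vehicle (1.21, SE 0.16).

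In the libraries labelled Irg1KO, cathepsin K and Src were several-fold higher than in WT vehicle. Ctsk rose 3.24-fold (log2 1.70, SE 0.08, adjusted p = 5.27e-20) and Src 3.69-fold (log2 1.88, SE 0.14, adjusted p = 4.39e-12). Atp6v0d2 rose by 0.57 (SE 0.11, adjusted p = 2.85e-05), and Tnfrsf11a fell by 0.34 (SE 0.06, adjusted p = 7.13e-06). Acp5 (0.07, SE 0.08, adjusted p = 0.565), Nfatc1 (0.11, SE 0.06, adjusted p = 0.181) and Ocstamp (-0.84, SE 0.55, adjusted p = 0.238) did not pass.

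Of the 7 tested members 4 were called, 3 higher and 1 lower, where 39.8% of all tested genes were called, 23.5% higher and 16.3% lower. Ctsk and Src also passed the test against a 2-fold threshold, and each kept its call in all 22 alternatives, with log2 fold changes of 1.59 to 1.76 for Ctsk and 1.43 to 2.10 for Src. The Ocstamp value turned on replicate 1 of the Irg1KO libraries: without it the log2 fold change was -2.72 and passed (adjusted p = 0.00141, over its alternatives 0.00141 to 1). Dcstamp summed to 7 counts in the Irg1KO libraries and 3 in vehicle, and Oscar to 6 and 4.

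Stromal and osteoblast markers were higher in the same libraries. All 12 tested of the 14 stromal markers rose (median log2 fold change 2.27), none of the 14 was at 0, and the fibrillar collagen gene Col1a1 was at 4850 CPM in the libraries labelled Irg1KO and 816 CPM in WT vehicle. Dcn and Lum stayed under 1 CPM in both groups. All 7 tested of the 11 osteoblast markers rose (median 2.68), with a sum of 186 to 222 CPM in the libraries labelled Irg1KO and 31.2 to 35.1 CPM in WT vehicle, while Bglap2 and Dmp1 were at 0 in the Irg1KO libraries and Bglap was listed in no library. The summed macrophage markers were 24795 to 27700 CPM in the libraries labelled Irg1KO and 25364 to 25932 CPM in WT vehicle. In the same order, neutrophil markers summed to 41.6 to 45.8 and 83.9 to 94.5 CPM (of 5 tested, 1 higher and 3 lower). B cell markers, led by Ebf1, summed to 16.7 to 18.8 and 4.35 to 5.58 CPM (of 2 tested, 1 higher). Endothelial sums were 30.5 to 34.1 and 36.6 to 40.8 CPM (of 5 tested, 0 higher and 2 lower). Megakaryocyte sums, led by Pf4, were 222 to 231 and 244 to 258 CPM. Of 3 tested megakaryocyte markers 2 were called higher and 1 lower (log2 fold changes -0.16 to 2.76), so this sum does not stand for each marker. Whether RNA of stromal or osteoblast cells contributes to the Ctsk and Src values was not tested.

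**Figure D3:**
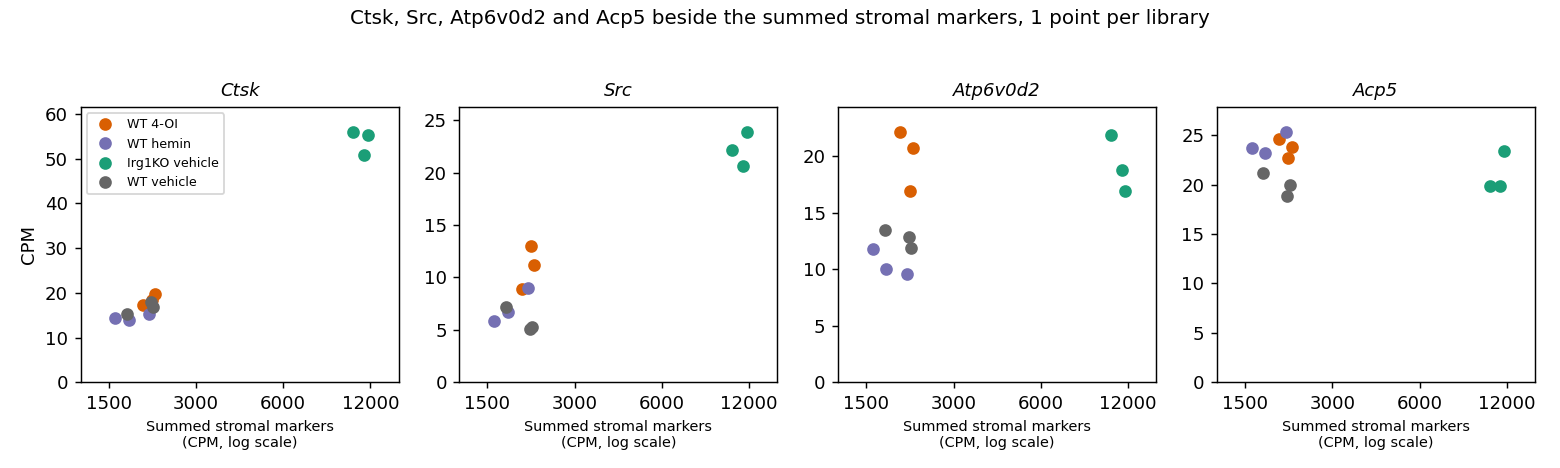
CPM of Ctsk, Src, Atp6v0d2 and Acp5 (vertical axes from 0) against the summed level of 14 stromal markers (CPM, log scale), 1 point per library, coloured for WT 4-OI, WT hemin, Irg1KO vehicle and WT vehicle. The Irg1KO libraries lie apart at 10471 to 11742 CPM of stromal markers, with Ctsk and Src above all WT libraries, Atp6v0d2 level with the 4-OI libraries and Acp5 inside the range of the WT libraries.

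The RANK list held some of the large increases in the Irg1KO libraries. Tnfsf11, which encodes RANKL, was at 3.05 CPM in the libraries labelled Irg1KO and 0.506 CPM in WT vehicle (log2 fold change 2.68, SE 0.35), Tnfrsf11b at 20.2 and 5.11 CPM (1.99, SE 0.11) and Csf1, the gene of M-CSF itself, at 299.9 and 85.8 CPM (1.81, SE 0.10). Bone-forming and stromal cells are the known makers of RANKL and osteoprotegerin. Both genes are also in the osteoblast marker list described above, so the rise of that list is not separate from theirs. Which cells made these transcripts was not tested. Over the 18 genes 5 were higher and 4 lower (median 0.01; 5 and 5, median -0.02, with RLE factors), and the adaptor gene Traf6 fell by 0.31 (SE 0.06). In the ITAM and calcium list 3 of 19 were higher and 7 lower (median -0.06), with Plcg2 at -0.37 (SE 0.05).

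Transcription factors moved in both directions in the libraries labelled Irg1KO. Of 16 transcription factors 3 were higher and 5 lower (median -0.08), but Fosl1 (1.76, SE 0.17) and Fosl2 (0.98, SE 0.06) rose, while Nfatc2 fell by 0.27 (SE 0.05) and Nfatc3 did not pass (-0.02, SE 0.05). Of 13 genes on the repressor list 1 was higher and 7 lower (median -0.15), with Id1 at -0.60 (SE 0.07) and Id2 at -0.48 (SE 0.09). The stromal marker median beside these lists was 2.27.

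Of 14 tested fusion and attachment genes, 8 were higher and 2 lower in these libraries (median 0.14; 7 and 3 with RLE factors, 7 and 2 with upper-quartile factors and with FPKM), where 23.5% of all tested genes were higher and the stromal marker median was 2.27. Higher ones were the metalloprotease gene Adam12 (39.0 against 8.68 CPM, 2.17, SE 0.10), the integrin β3 gene Itgb3 (1.42, SE 0.12) and the osteopontin gene Spp1 (0.67, SE 0.05). Of 18 resorption genes 6 were higher and 2 lower (median 0.02; 4 higher and 3 lower with a median of -0.0017 with RLE factors, 3 and 3 on the log2(FPKM + 1) scale), with Mmp14 at 0.49 (SE 0.11) and the osteoclast proton pump gene Tcirg1 at -0.22 (SE 0.04). Other cathepsin genes moved little beside Ctsk: Ctss was at 0.15 (SE 0.05) and Ctsl at 0.14 (SE 0.05), both called, while Ctsb (0.03, SE 0.05), Ctsd (-0.07, SE 0.05) and Ctsz (-0.09, SE 0.05) did not pass. Among 19 V-ATPase subunits Atp6v0d2 was the 1 called higher and 4 were lower (median -0.07), and its paralog Atp6v0d1 did not pass (-0.11, SE 0.05).

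Src was not the only kinase of its family to be higher in these libraries. Yes1 was at 9.58 CPM in the libraries labelled Irg1KO and 1.90 CPM in WT vehicle (2.40, SE 0.20), and the Src substrate gene Cttn (cortactin) at 94.1 and 30.3 CPM (1.64, SE 0.07). The blood-cell kinase gene Lyn fell (-0.22, SE 0.05), and Fyn (-0.04, SE 0.06) and Fgr (0.04, SE 0.18) did not pass. Over the 14 tested genes 4 were higher and 7 lower (median -0.10). These directions stand beside a stromal marker sum of 10471 to 11742 CPM, against 1736 to 2136 CPM in WT vehicle.

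**Figure D4:**
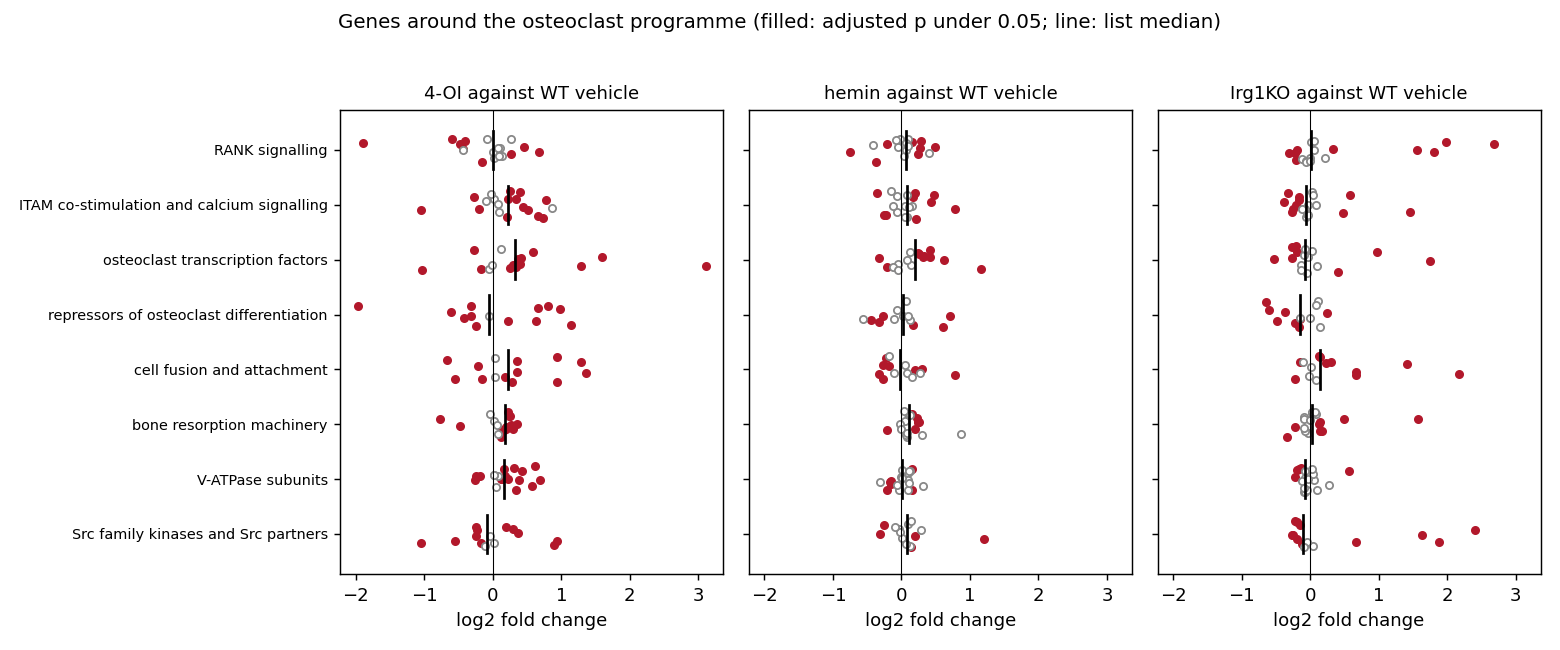
Log2 fold changes (horizontal axis) of the tested genes of 8 lists for 4-OI, hemin and Irg1KO, each against WT vehicle, with filled points where the adjusted p was under 0.05 and a bar at the median of each list. Medians lie between -0.15 and 0.32, and the widest single increases are Fosl1 at 3.11 with 4-OI and Tnfsf11 at 2.68 in the Irg1KO libraries.

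The 3 comparisons with WT vehicle share the same 3 vehicle libraries, so their values are set side by side only. Direct comparisons were made between 4-OI and the other two groups. Against hemin, which differed in dose and hours, 4-OI had higher Atp6v0d2 (0.93, SE 0.12, adjusted p = 2.94e-08), Src (0.61, SE 0.16, adjusted p = 0.00265), Ctsk (0.36, SE 0.10, adjusted p = 0.00260) and Ocstamp (1.08, SE 0.40, adjusted p = 0.0296), and lower Tnfrsf11a (-0.15, SE 0.06, adjusted p = 0.0422). Acp5 did not pass (-0.03, SE 0.09, adjusted p = 0.844, 95% interval -0.20 to 0.14), nor did Nfatc1 (-0.15, SE 0.07, adjusted p = 0.0562).

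So 5 of 7 tested members were called between 4-OI and hemin, 4 higher and 1 lower, where 42.3% of all tested genes were called, 20.6% higher and 21.7% lower. The Src and Tnfrsf11a libraries of these groups overlapped. Of 19 V-ATPase subunits, Atp6v0d2 included, 10 were higher with 4-OI than with hemin and 0 lower (median 0.19; 8 and 2 on the log2(FPKM + 1) scale). Ocstamp lost its call when any single 4-OI or hemin library was left out (1.02 to 1.11), with DESeq2 (1.11), with FPKM and 0.1 added (0.89) and with the replicate number as a block (1.05). Tnfrsf11a lost its call with RLE factors (-0.12), with DESeq2 (-0.12), with only these 2 groups fitted (-0.15), and without 4-OI replicate 1 (-0.09), 4-OI replicate 2 (-0.16) or hemin replicate 3 (-0.10). Nfatc1 passed, lower with 4-OI, with upper-quartile factors (-0.18), with FPKM (-0.21 with 1 added), and without 4-OI replicate 3 (-0.21) or vehicle replicate 1 (-0.15). On the log2(FPKM + 1) scale 1739 genes were higher and 3490 lower in place of 2500 and 2636.

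Against the libraries labelled Irg1KO, 4-OI had lower Ctsk (-1.53, SE 0.08, adjusted p = 1.16e-18), Src (-0.99, SE 0.13, adjusted p = 2.83e-07) and Nfatc1 (-0.19, SE 0.06, adjusted p = 0.0118), and higher Ocstamp (2.44, SE 0.46, adjusted p = 5.25e-05) and Tnfrsf11a (0.16, SE 0.06, adjusted p = 0.0161). Atp6v0d2, higher than vehicle in both, was at 0.05 (SE 0.10, adjusted p = 0.712) and Acp5 at 0.17 (SE 0.09, adjusted p = 0.0918). Genotype, compound and hours all differ between these groups, and the stromal sum was 1968 to 2173 CPM with 4-OI and 10471 to 11742 CPM in the Irg1KO libraries.

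Here 5 of 7 tested members were called, 2 higher and 3 lower, where 57.7% of all tested genes were called, 23.5% higher and 34.2% lower. Nfatc1 lost its call with DESeq2 (-0.15), with only these 2 groups fitted (-0.12), and without 4-OI replicate 1 (-0.14) or Irg1KO replicate 1 (-0.17). Tnfrsf11a lost its call with FPKM (0.06), and without 4-OI replicate 2 (0.15), 4-OI replicate 3 (0.12) or Irg1KO replicate 1 (0.12). Acp5 passed, higher with 4-OI, with RLE factors (0.21), with only these 2 groups fitted (0.23) and without Irg1KO replicate 1 (0.25). On the log2(FPKM + 1) scale 1767 genes were higher and 5354 lower in place of 2852 and 4159.

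Some genes outside the programme had nearly the same pattern over the 4 group means as a member. The 3 members whose highest and lowest group differed at least 2-fold were set against 9589 or 9590 genes averaging 5 CPM or more, by the root mean square difference of centred log2 CPM, as a description. Nearest to Ctsk was Loxl3, a lysyl oxidase gene (root mean square difference 0.013), at 83.4 CPM with 4-OI, 66.2 CPM with hemin, 239.9 CPM in the Irg1KO libraries and 74.4 CPM in WT vehicle, followed by Dcbld2 (0.037) and Efnb2 (0.037). Nearest to Src were Adamtsl4 (0.041), the N-cadherin gene Cdh2 (0.071) and Adcy2 (0.080).

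Ocstamp had no gene as near, with Lpl (lipoprotein lipase, 0.226), Prdm1 (0.229) and Sort1 (0.245) as its closest. Prdm1 was at 23.1 CPM with 4-OI, 11.8 CPM with hemin, 5.24 CPM in the Irg1KO libraries and 7.59 CPM in WT vehicle. Ocstamp was at 2.13, 1.00, 0.394 and 0.680 CPM in the same groups. Prdm1 was picked by these same group means, so a like pattern follows from the search and supports nothing. For Ocstamp, neither hemin nor Irg1KO was called against WT vehicle. The span of log2 group means was wider for Ocstamp than for 97.5% of tested genes, for Src than for 91.2% and for Ctsk than for 90.9%, against 43.8% for Tnfrsf11a and 32.3% for Acp5.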

How the data were processed

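Bulk RNA-seq of 12 BMDM libraries (TRIzol RNA, per the labels' protocols) was analysed from the per-gene tables the authors deposited. These hold RSEM-style expected counts and FPKM for each gene, and mean transcript lengths. HISAT2, StringTie, Bowtie2 and RSEM and the build GRCm39 (mm39) are named in the submitters' processing notes, with no role or version. Strandedness is not given in the sources used here.

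Deposited expected counts were rounded to whole numbers, absent genes counted as 0, and genes kept by edgeR's filterByExpr (minimum 10 counts, or 0.731 CPM in 3 libraries), which left 12148. All 12 libraries entered 1 fit (R 4.3.3, edgeR 4.0.16, TMM factors, robust quasi-likelihood F test), with Benjamini-Hochberg adjustment over all tested genes and calls under 0.05. SE is the log2 fold change over the square root of F. Expected counts of all 9 listed members were whole in every library, so none held a fractional share of reads. Deposited FPKM values gave levels and, with limma 3.58.1 on log2(FPKM + 1) and log2(FPKM + 0.1), an alternative. The others were RLE and upper-quartile factors, DESeq2 1.42.0, no filter, 10 counts in 6 libraries, a replicate block, a fit of each pair of groups alone, a test against a 2-fold change and the loss of each library in turn. The fit was tested on simulated data. No replicate pair agreed within sampling noise (chi-square per degree of freedom 2.40 to 4.88). Intervals cover counting error only.

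Members and lists were chosen with earlier results of these data known. Named genes are all members, up to 4 genes per list and comparison by adjusted p, and some of the members' paralogs, with 3 nearest genes per likeness search. Traf6 and, for 4-OI, Id2 and Irf4 were named after their values were seen. Values of some list genes are not reported here.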

Additional observations from a re-analysis of the deposited data

How the results depend on the processing

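Over 35 member fold changes and 769 alternative values, 702 kept their side of the threshold, 52 lost a call and 15 gained one. No called value changed sign, but 4 uncalled ones crossed 0: Tnfrsf11a for hemin (-0.10 to 0.01) and Acp5 for Irg1KO (-0.02 to 0.11), each against WT vehicle, Acp5 for 4-OI against hemin (-0.08 to 0.02) and Atp6v0d2 for 4-OI against Irg1KO (-0.03 to 0.16). Without the 2-fold threshold, 36 lost a call. Against a 2-fold threshold the genes called were 480 for 4-OI, 22 for hemin and 1054 for Irg1KO against WT vehicle, 251 for 4-OI against hemin and 1238 for 4-OI against Irg1KO, in place of 6126, 2092, 4833, 5136 and 7011. The members called were then 0, 0, 2, 0 and 2, in place of 5, 1, 4, 5 and 5 (members at an unadjusted p under 0.05 by edgeR were 1, 0 and 0 where the count was 0). That threshold tests a larger difference by construction.

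For hemin, DESeq2 called 0 of 9 tested members (2 at an unadjusted p under 0.05) and no filter called 2 of 9. Leaving out 1 library gave 0 to 2 of 7 tested members for hemin, with 2 at an unadjusted p under 0.05 in each case of 0. It gave 4 to 5 for 4-OI and 4 to 5 for Irg1KO. Between groups it gave 3 to 6 for 4-OI against hemin and 4 to 5 for 4-OI against Irg1KO. DESeq2 called 3 of 9 tested members for 4-OI against hemin. Numbers of all genes called under these settings are not reported here, so these member counts have no share of all genes beside them. The cause of these shifts was not tested.

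Replicate numbers did not pair the samples (correlations of deviations -0.08 to 0.07 over 18 pairs). With the replicate number as a block, 5, 1, 4, 4 and 5 members and 6156, 2159, 4879, 5181 and 7043 genes were called in the same order of comparisons, and 34 of 35 member fold changes kept their side. Ocstamp between 4-OI and hemin was the exception (1.05). Of 880 counts over the 8 lists, 820 stayed within 1.5 times and 60 moved. Dcstamp, Oscar and Calcr had 0 to 5 counts per library, so ratios between groups are imprecise for them.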
